A study of Mus musculus with 67 samples.

Results

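The RNA levels of 9 genes that are induced by, and act back on, fibroblast growth factor (FGF) signalling were examined in mouse forelimb buds: *Dusp6*, *Spry1*, *Spry2*, *Spry4*, *Spred1*, *Spred2*, *Il17rd*, *Etv4* and *Etv5*. The genes were taken by name from the 46983 gene IDs of the deposited tables. Each of the 9 symbols matched 1 gene ID, and all 9 passed the filter on low values in every comparison. RNA-seq was made from 14 pools of forelimb buds in 4 groups. The pre-HH groups, from before the onset of Hedgehog (HH) signalling, were whole forelimb buds at E9.25 (21–23 somites, S), with 3 WT and 4 *Gli3*-/- libraries of about 4 pairs of buds each. For the post-HH groups, only the anterior part of the bud was taken at E10.5 (32–35 S). There were 4 WT pools and 3 *Gli3*-/- pools, each of 2 pairs of buds by the sample records. The study's methods give about the E9.25 pool size for both stages, and this difference was not resolved. Mutants were homozygous for the germline Xt-J allele of *Gli3* on a Swiss Webster background, and WT embryos were the controls at each stage. Because the E9.25 buds were whole and the E10.5 buds anterior, stage and dissection cannot be told apart. In pooled tissue, fewer cells of a type and less RNA per cell cannot be told apart either.

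FGFs bind receptor tyrosine kinases and signal through RAS and the kinases MEK and ERK. In the limb bud, *Fgf8* and *Fgf4* are made in the apical ectodermal ridge and *Fgf10* in the mesenchyme beneath it, and the ridge and the mesenchyme maintain each other. Cells that receive FGF switch on a small set of genes. Some of these are transcription factors of the ETS family, which carry the response on, and most of the others encode inhibitors that dampen the pathway. The level of their RNA is therefore widely read as a record of FGF-ERK activity, although other receptor tyrosine kinases can induce them too. GLI3 is the main transcriptional repressor of HH target genes in the limb, and the comparisons below ask whether FGF response RNA differed without it before and after HH signalling begins.

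The estimated depth of the libraries was 38.1 to 56.8 M reads, and a TPM (transcripts per M transcripts, a level per transcript length) of 1 stood for 20.7 to 29.3 reads per kilobase. The lowest level of any of the 9 genes was 10.9 TPM, so that none rested on few reads. *Gli3* RNA, which checks the labels, was 40.9, 40.3 and 38.7 TPM in the E10.5 *Gli3*-/- libraries and 84.3, 73.4, 89.7 and 79.1 TPM in E10.5 WT. At E9.25 it was 14.3, 20.6, 20.8 and 19.1 TPM in *Gli3*-/- and 44.2, 15.8 and 44.6 TPM in WT. The library labelled E9.25 WT replicate 2 thus lay within the range of the *Gli3*-/- libraries for *Gli3*, and several of the values that it moved are also given with it left out. Its *Fgf8* level of 57.8 TPM lay above those of all 4 E9.25 *Gli3*-/- libraries. That library also had the fewest genes at 1 TPM or more, 13276 against 14162 to 14970 in the other E9.25 libraries. Of the 9 genes, 7 lay below their group mean in it and 2 above. Limb mesenchyme markers such as *Prrx1* and *Tbx5* were present in every group, with 10 of 10 at a mean of 1 TPM or more.

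The test was limma on log2(TPM + 1), for genes that reached 1 TPM in 3 or more libraries of the comparison, and a gene was called when its Benjamini-Hochberg adjusted p over all genes tested was under 0.05. Differences below are on the log2(TPM + 1) scale with their standard error unless a TPM is given. The median gene was not at 0 in every comparison. It lay at 0.23 for *Gli3*-/- against WT at E9.25, at -0.02 at E10.5, at 0.34 for E10.5 against E9.25 in WT, at 0.06 for the same difference in *Gli3*-/-, and at -0.24 for the interaction of stage and genotype. Values relative to the median gene are given where that matters.

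In post-HH anterior buds, the mean level of each of the 9 genes was higher without *Gli3*. Of the 9 genes, 6 were called higher and none lower, where 1.84% of the 15654 genes tested were called higher. The 3 sprouty genes, *Dusp6*, *Il17rd* and *Spred2* passed, and *Etv5*, *Spred1* and *Etv4* did not. The count of 6 was 3 to 4 with 1 library left out, and 2, *Dusp6* and *Spry4*, in a single model of all 14 libraries or with a replicate block by the numbers of the sample titles. A block by the numbers of the deposited tables, which differ for the mutants, called 7. For each of the 9 genes, every *Gli3*-/- library lay above every WT library, a separation found in this direction for 7.87% of genes tested. The median difference of the 9 genes was 0.39, and that of all genes tested was -0.02. In pre-HH buds limma called none of the 9 genes, where 0.108% of all genes were called higher and 0.0271% lower, and the effect of *Gli3* loss differed between the stages by its own test for *Dusp6* alone.

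**Figure D1:**
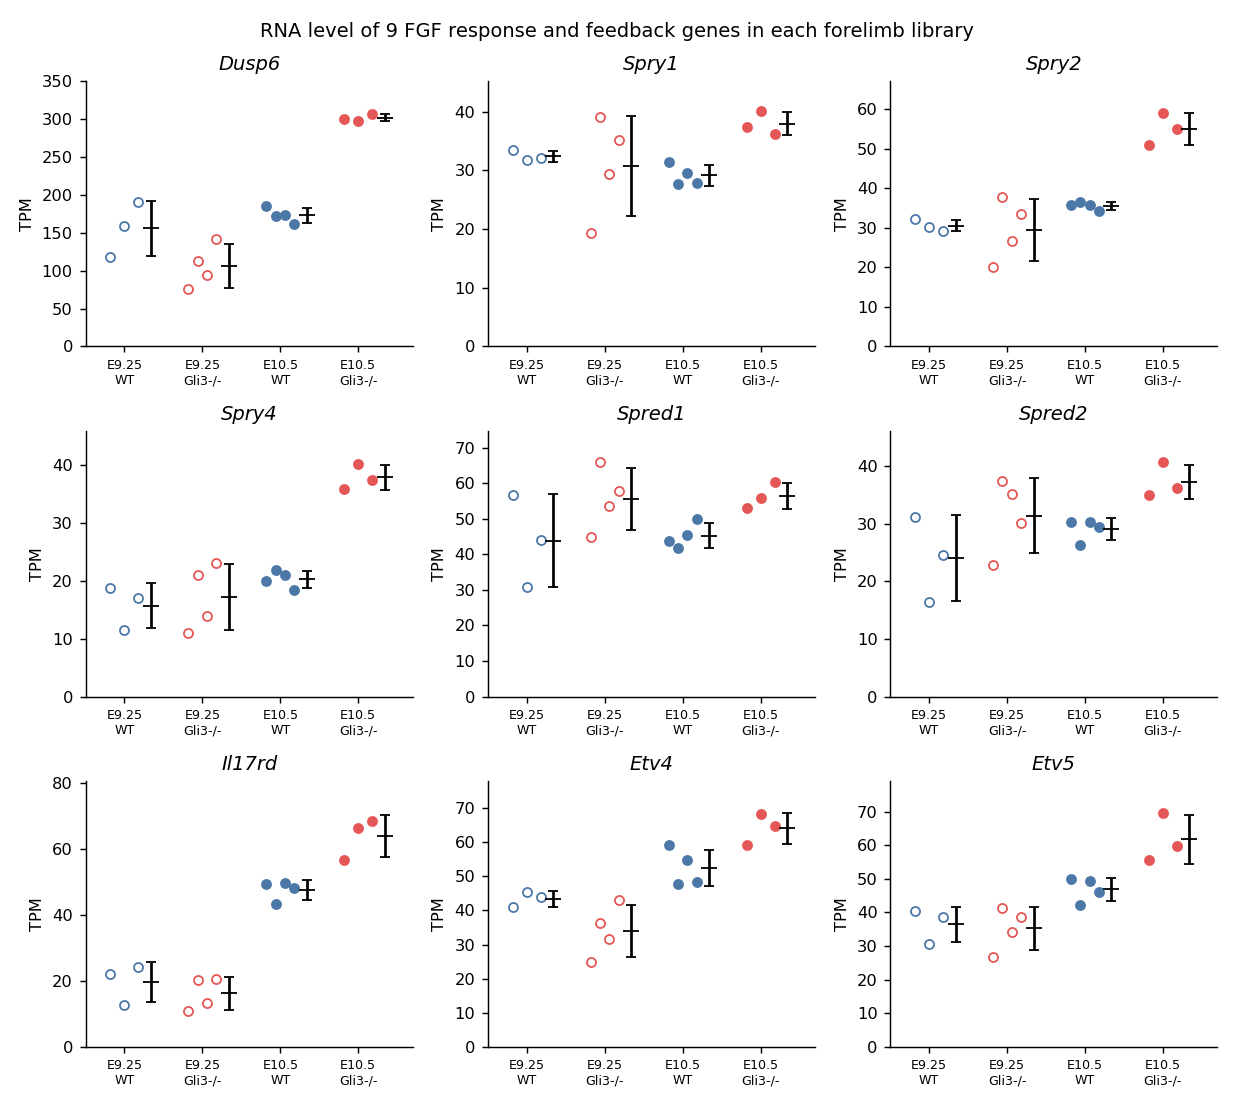
RNA level (y axis, TPM, starting at 0) of each of the 9 genes in the 14 libraries, in the order E9.25 WT, E9.25 *Gli3*-/-, E10.5 WT and E10.5 *Gli3*-/- (x axis). Each circle is 1 library (open at E9.25, filled at E10.5), and black bars are the mean and SD of each group. In every panel the 3 E10.5 *Gli3*-/- libraries lie above the 4 E10.5 WT libraries, whereas the E9.25 groups overlap.

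*Dusp6* (ENSMUSG00000019960, chromosome 10, 99263231 to 99267488, plus strand, in mm10) encodes a phosphatase that removes the activating phosphates from ERK, and in the limb mesenchyme it is a classical target of FGF8. It was the most abundant of the 9 genes in all 4 groups, above the next gene in every library. At E10.5 its level was 184.8, 171.6, 173.7 and 161.1 TPM in WT and 300.6, 297.6 and 306.7 TPM in *Gli3*-/-. The mutant libraries lay close together, 74.6% above the WT mean, and the difference of 0.80 ± 0.06 (SE) was called (limma, adjusted p = 0.000338). At E9.25 the direction was the opposite: 118.4, 159.0 and 190.7 TPM in WT against 75.3, 113.3, 94.1 and 141.8 TPM in *Gli3*-/-. These groups overlapped, and the difference of -0.56 ± 0.22 was not called (limma, adjusted p = 0.217). The difference between the 2 effects was 1.36 ± 0.25 (95% CI 0.82 to 1.91) and was called (limma, adjusted p = 0.0119), in a comparison in which 0.477% of 16368 genes were called higher. With the library labelled E9.25 WT replicate 2 left out it was 1.34 (limma, adjusted p = 0.0300).

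The 250 bases upstream of the *Dusp6* start (chr10:99262981-99263230, plus strand, from the RefSeq promoter set of GRCm38.p6) are shown because *Dusp6* was the gene of the 9 called by the test of the difference between the stages, and those of *Spry2* (chr14:105896820-105897069, minus strand) for comparison. Capitals mark a 7-letter part, without the last letter, of the octamers searched as motifs of Capicua, a repressor that ERK signalling relieves and that holds down ETV4 and ETV5 genes in several tissues. Both are written in the direction of transcription.
Dusp6: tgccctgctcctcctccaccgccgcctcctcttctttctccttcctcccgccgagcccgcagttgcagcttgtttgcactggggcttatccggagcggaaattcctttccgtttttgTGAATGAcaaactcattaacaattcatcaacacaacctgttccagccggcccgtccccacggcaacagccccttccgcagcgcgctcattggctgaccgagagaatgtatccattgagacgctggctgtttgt
Spry2: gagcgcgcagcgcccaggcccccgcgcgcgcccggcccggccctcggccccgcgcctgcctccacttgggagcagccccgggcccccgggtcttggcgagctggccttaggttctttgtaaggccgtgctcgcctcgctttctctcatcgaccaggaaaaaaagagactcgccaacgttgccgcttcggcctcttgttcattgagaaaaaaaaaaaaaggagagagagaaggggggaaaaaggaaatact

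RefSeq windows were found for 7 of the 9 genes, 8 windows in all since *Etv5* has 2 starts, and *Etv4* and *Spry4* were not among them. The Capicua octamers TGAATGAA and TGAATGGA, searched on both strands, occurred in 0 of the 8 windows and in 2.07% of all 32851 windows. The ETS core CCGGAAG occurred in 0 of 8 and in 6.91% of all. The shorter form TGAATGA or TGAATGG, which was added after the octamers gave no match and contains them, occurred in 2 of 8 windows and in 5.93% of all. *Dusp6* held it at position -133 from its start, and 1 of the *Etv5* windows (minus strand) held it at 3 positions, each shown with its surroundings.
Etv5 -242: agttttcaTGAATGGgaaggctggg
Etv5 -198: tcttgttttgTGAATGGggccgggcgc
Etv5 -130: gctccatctcCCATTCAtaaaaccagg

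These stretches, with the letters around each match, lie at chr16:22438594-22438618, chr16:22438550-22438576 and chr16:22438482-22438508, and the last match is on the strand opposite to transcription. The matches describe letters in the windows and were not tested for binding. G and C made up 56.4% of the *Dusp6* stretch and 62.4% of that of *Spry2*, against a median of 52.4% over all windows.

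Sprouty proteins block the path from receptor to RAS, and *Spry1*, *Spry2* and *Spry4* are all made in limb mesenchyme in response to FGF. *Spry4* (ENSMUSG00000024427, chromosome 18) showed the largest difference of the 9 genes at E10.5. It was 19.9, 21.8, 20.9 and 18.3 TPM in WT and 35.8, 40.1 and 37.4 TPM in *Gli3*-/-, an increase of 0.87 ± 0.08 (limma, adjusted p = 0.000685). It was the least abundant of the 9 genes in E10.5 WT, yet in *Gli3*-/- it overlapped *Spry1* and *Spred2*. At E9.25 it was 18.7, 11.4 and 17.0 TPM in WT and 11.0, 21.0, 13.8 and 23.0 TPM in *Gli3*-/-. These ranges overlapped, and the difference was 0.10 ± 0.27 (95% CI -0.50 to 0.69). That value was -0.13 relative to the median gene and -0.10 with the library labelled E9.25 WT replicate 2 left out. A pair of short gene models on the other strand overlaps *Spry4*, and neither exceeded 5.93 TPM.

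*Spry2* (ENSMUSG00000022114, chromosome 14, 105891949 to 105896819, minus strand) was 35.8, 36.5, 35.7 and 34.2 TPM in E10.5 WT and 50.9, 59.1 and 55.0 TPM in E10.5 *Gli3*-/-. It rose by 0.61 ± 0.07 (limma, adjusted p = 0.00182), but was not called with the block by title numbers or in the single model of all libraries (limma, adjusted p up to 0.0597), and its E10.5 WT libraries differed by a coefficient of variation of only 2.69%. At E9.25 it was 32.1, 30.3 and 29.3 TPM in WT and 20.02, 37.9, 26.7 and 33.6 TPM in *Gli3*-/-. The mutant libraries lay on both sides of the WT libraries, with a difference of -0.09 ± 0.21.

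*Spry1* (ENSMUSG00000037211, chromosome 3, 37639947 to 37644598, plus strand) was 31.5, 27.7, 29.5 and 27.9 TPM in E10.5 WT and 37.4, 40.1 and 36.3 TPM in E10.5 *Gli3*-/-, an increase of 0.37 ± 0.08 (limma, adjusted p = 0.0262). At E9.25 it was 33.5, 31.7 and 32.1 TPM in WT and 19.4, 39.1, 29.3 and 35.1 TPM in *Gli3*-/-, with a difference of -0.12 ± 0.22.

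The sprouty-related proteins SPRED1 and SPRED2 sit at the membrane and hold RAF inactive, and SPRED1 brings the RAS inhibitor neurofibromin there. *Spred2* (ENSMUSG00000045671, chromosome 11, 19924375 to 20024026, plus strand) was 30.3, 26.3, 30.2 and 29.5 TPM in E10.5 WT and 35.0, 40.6 and 36.2 TPM in E10.5 *Gli3*-/-. The difference of 0.35 ± 0.08 passed only just (limma, adjusted p = 0.0499). *Spred1* (ENSMUSG00000027351, chromosome 2, 117121374 to 117182279, plus strand) was 43.6, 41.9, 45.5 and 49.9 TPM in E10.5 WT and 53.0, 55.8 and 60.4 TPM in E10.5 *Gli3*-/-. Its difference of 0.31 ± 0.08 (95% CI 0.13 to 0.50) was not called (limma, adjusted p = 0.0636).

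At E9.25 these genes had the most positive differences of the 9. *Spred1* was 56.8, 30.8 and 44.0 TPM in WT and 45.0, 66.1, 53.6 and 57.7 TPM in *Gli3*-/-, a difference of 0.36 ± 0.21. *Spred2* was 31.2, 16.4 and 24.5 TPM in WT and 22.8, 37.5, 35.2 and 30.0 TPM in *Gli3*-/-, a difference of 0.39 ± 0.24. In both genes the lowest value of the 7 was that of the library labelled E9.25 WT replicate 2, and without it the differences were 0.14 and 0.15. Relative to the median gene they were 0.14 and 0.17. The interaction was -0.05 for each, and 0.18 and 0.20 with that library left out, against 0.44 to 1.36 for the other 7 genes. Relative to the median gene it was 0.19 for each, and all 9 genes lay above that gene.

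IL17RD, also called SEF, is a transmembrane protein that restrains FGF receptor and ERK signalling. *Il17rd* (ENSMUSG00000040717, chromosome 14, 27039001 to 27107286, plus strand) was 49.4, 43.3, 49.6 and 48.1 TPM in E10.5 WT and 56.7, 66.5 and 68.6 TPM in E10.5 *Gli3*-/-. It rose by 0.42 ± 0.09 (limma, adjusted p = 0.0268). At E9.25 it was 22.1, 12.7 and 24.3 TPM in WT and 10.9, 20.3, 13.2 and 20.7 TPM in *Gli3*-/-, which overlapped, with a difference of -0.26 ± 0.28. With the library labelled E9.25 WT replicate 2 left out that difference was -0.53 (limma, adjusted p = 0.433). Over all 7 fits with 1 library left out it lay between -0.53 and -0.09.

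ETV4 and ETV5 are ETS transcription factors that FGF induces in distal limb mesenchyme, where they keep *Shh* out of the anterior limb. *Etv5* (ENSMUSG00000013089, chromosome 16, 22381309 to 22439719, minus strand) was 49.8, 42.3, 49.5 and 45.9 TPM in E10.5 WT and 55.7, 69.7 and 59.9 TPM in E10.5 *Gli3*-/-. The difference of 0.39 ± 0.09 (95% CI 0.18 to 0.60) lay at the threshold and was not called (limma, adjusted p = 0.05002). *Etv4* (ENSMUSG00000017724, chromosome 11, 101769742 to 101785371, minus strand) was 59.1, 47.7, 54.7 and 48.5 TPM in E10.5 WT and 59.1, 68.2 and 64.8 TPM in E10.5 *Gli3*-/-. The lowest mutant library and the highest WT library all but met, and the difference of 0.29 ± 0.09 was the smallest of the 9 (limma, adjusted p = 0.124).

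At E9.25, *Etv4* was 40.9, 45.4 and 44.0 TPM in WT and 24.7, 36.4, 31.5 and 42.9 TPM in *Gli3*-/-. Of the 4 mutant libraries, 3 lay below all WT libraries, and the difference was -0.37 ± 0.18 (95% CI -0.78 to 0.03). With 1 library left out that difference lay between -0.49 and -0.24. *Etv5* was 40.4, 30.5 and 38.5 TPM in WT and 26.7, 41.4, 34.02 and 38.7 TPM in *Gli3*-/-, with a difference of -0.06 ± 0.18, which was -0.18 with the library labelled E9.25 WT replicate 2 left out.

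**Figure D2:**
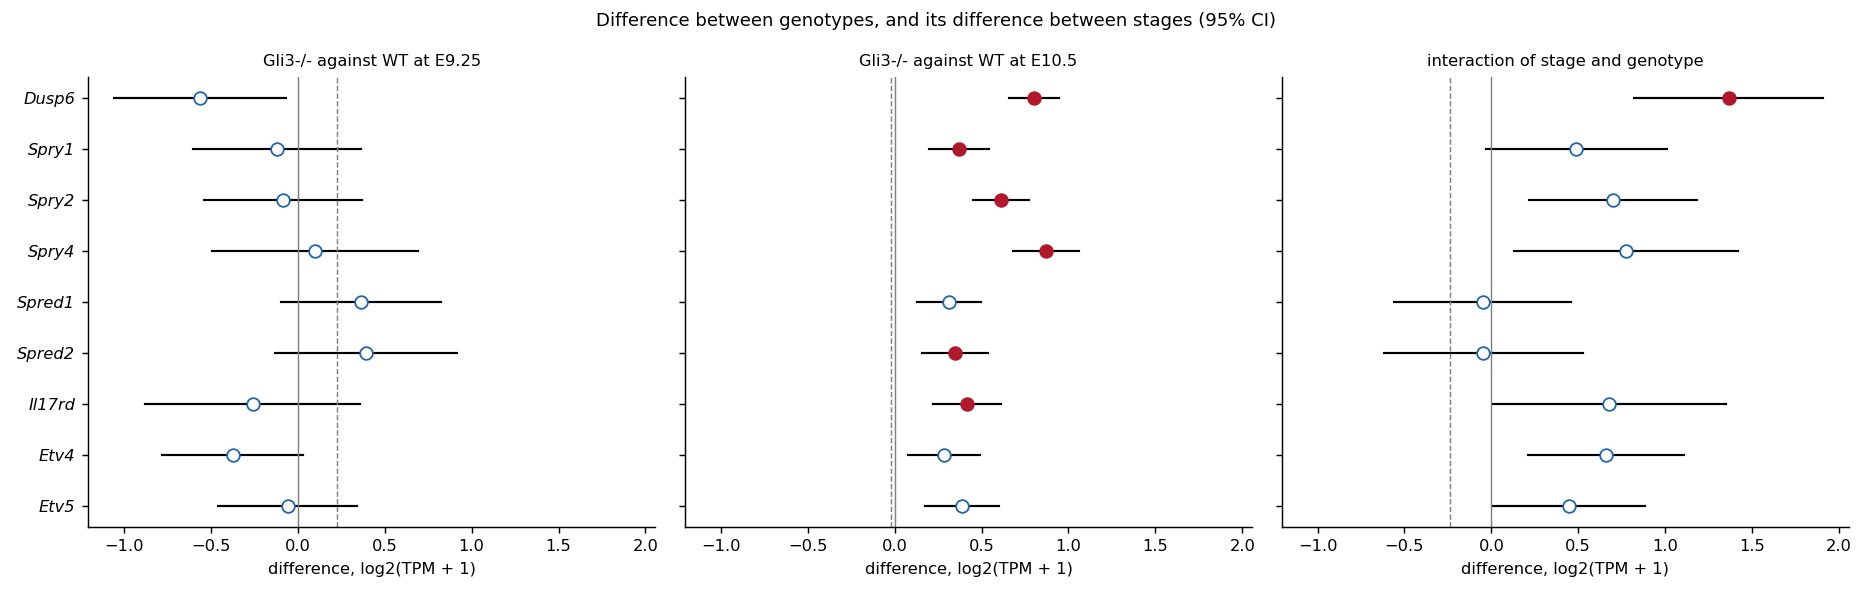
Difference of *Gli3*-/- from WT on the log2(TPM + 1) scale (x axis) for each of the 9 genes (y axis) at E9.25 (left) and E10.5 (middle), and the difference between these effects (right). Points are limma estimates, filled where the adjusted p was under 0.05, lines are 95% confidence intervals, and the dashed line is the median of all genes tested. At E10.5 all 9 points lie to the right of 0, between 0.29 and 0.87, and 6 are filled, whereas at E9.25 the points lie on both sides of 0 and on the right only *Dusp6* is filled.

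Seen over the 9 genes, the E9.25 comparison gave a median difference of -0.09, against 0.23 for all genes tested. Only *Spred1* and *Spred2* lay above that median of all genes. At that stage limma called 0 of 9 genes, and 1 of 9 (*Dusp6*, lower) had an unadjusted p under 0.05, as did 2.78% of all genes in that direction and 19.2% in the other. Few genes of any kind were called at E9.25, 0.108% higher and 0.0271% lower of 14760, or 16 and 4 genes. These became 17 and 13 with quantile normalization and 1039 and 146 in the single model of all 14 libraries. With 1 library left out there were 2 to 196 in all, the highest without WT replicate 1. The count of 0 of 9 was the same without each of the 7 libraries in turn. The coefficient of variation in *Gli3*-/- was larger at E9.25 than at E10.5 for each of the 9 genes, at most 33.1% (*Spry4*) against at most 11.7% (*Etv5*). In WT this held for 7 of the 9, but not for *Spry1* (2.86% against 6.06%) and *Etv4* (5.30% against 10.3%).

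The E10.5 calls rested unequally on single libraries. *Dusp6*, *Spry4* and *Spry2* were called without each of the 7 libraries in turn. *Il17rd* was called in 2 of the 7 fits and *Spry1* in 1, and *Spred2* in none. The count of called genes was 3 without WT replicate 2, WT replicate 4, *Gli3*-/- replicate 2 or *Gli3*-/- replicate 3, and 4 without any of the others. All 9 differences were positive in all 7 fits. Over 12 other settings, *Spry1* was called in 10, *Il17rd* in 8 and *Spred2* in 6. Of the genes not called in the main fit, *Etv5* was called in 5, *Spred1* in 4 and *Etv4* in 1.

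By the interaction test, 6 of the 9 genes had a positive value with an unadjusted p under 0.05, as did 2.83% of all genes, and only *Dusp6* was called. This count moved with the scaling of the libraries, which shifts the median gene of this comparison. With quantile normalization 5 were called higher, namely *Dusp6*, *Spry2*, *Spry4*, *Etv4* and *Etv5*. Median-of-ratios size factors gave 4, FPKM values 3, and removal of a trend over gene span 5. Without *Gli3*-/- replicate 4 of E9.25, 2 were called, *Dusp6* and *Etv4*. Over all genes, 78 were called higher and 270 lower, which became 164 and 181 with quantile normalization. With 1 library left out the total ran from 150 without E10.5 *Gli3*-/- replicate 3 to 1433 without E9.25 WT replicate 1.

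Of 22 FGF ligand genes, 8 were testable at E10.5. Of these, 4 were called higher in *Gli3*-/- and none lower, where 1.84% and 2.93% of all genes were, and 6 of the 8 differences were positive. *Fgf4* and *Fgf17* were testable only through the mutant libraries in which they are high, so their calls add no support. *Fgf8*, the main ridge ligand, was 59.0, 50.4, 69.0 and 57.8 TPM in E10.5 WT and 131.4, 157.2 and 170.9 TPM in E10.5 *Gli3*-/-, an increase of 1.36 ± 0.12 (limma, adjusted p = 0.000501). At E9.25 it was 40.3, 57.8 and 71.1 TPM in WT and 18.3, 18.3, 17.6 and 36.6 TPM in *Gli3*-/-. Each mutant library lay below each WT library there, a separation in this direction that 3.36% of genes showed, but the difference of -1.31 ± 0.27 was not called (limma, adjusted p = 0.130). It was called without WT replicate 1 (limma, adjusted p = 0.03705) and without *Gli3*-/- replicate 4 (limma, adjusted p = 0.0238). The replicate block by title numbers (limma, adjusted p = 0.0255) and the single model of all 14 libraries (limma, adjusted p = 0.0115) also called it. Over all alternatives its adjusted p lay between 0.0115 and 0.386. The effect of *Gli3* loss on *Fgf8* differed between the stages by 2.67 ± 0.33 (limma, adjusted p = 0.000732).

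*Fgf4*, another ridge ligand, which in the normal limb is confined to the posterior ridge, was listed at 0 in all 7 E9.25 libraries. At E10.5 it was 0.50, 0.56, 1.30 and 1.34 TPM in WT and 5.63, 5.69 and 10.4 TPM in *Gli3*-/-, with no overlap. *Fgf10*, the mesenchymal ligand, was 12.7, 13.1, 12.6 and 10.2 TPM in E10.5 WT and 25.5, 25.7 and 27.3 TPM in E10.5 *Gli3*-/-, an increase of 1.05 ± 0.10 (limma, adjusted p = 0.000643). *Fgf17*, named after its values were seen, was 0 to 0.61 TPM in E10.5 WT and 1.43 to 1.63 TPM in E10.5 *Gli3*-/-. At E9.25 none of 5 testable ligand genes was called, and 3 had an unadjusted p under 0.05, where 19.2% of all genes were higher and 2.78% lower at that p. *Fgf8* was lower, and *Fgf9* (1.59 ± 0.36) and *Fgf15*, named after their values were seen, were higher. *Fgf15* was 0.36 to 1.16 TPM in WT and at most 2.49 TPM in *Gli3*-/- and was testable only through the mutant libraries, so it adds no support. There *Fgf10* was 21.1 to 28.1 TPM in WT and 23.2 to 37.6 TPM in *Gli3*-/-, a difference of 0.32 ± 0.19.

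Of 4 testable receptor genes, none was called higher at E10.5 and 2 were called lower, where 2.93% of all genes were. *Fgfr2*, whose splice forms serve ectoderm and mesenchyme, was 45.8, 45.7, 43.1 and 57.1 TPM in WT and 27.7, 26.6 and 19.6 TPM in *Gli3*-/-, and fell by 0.94 ± 0.13 (limma, adjusted p = 0.00498). *Fgfr3*, a receptor best known from cartilage, was 5.76, 4.70, 5.79 and 8.46 TPM in WT and 1.96, 2.77 and 1.24 TPM in *Gli3*-/-, and fell by 1.27 ± 0.21 (limma, adjusted p = 0.0109). The *Fgfr2* call was lost in the single model of all libraries (limma, adjusted p = 0.124) and that of *Fgfr3* with no filter or either replicate block (limma, adjusted p up to 0.104). *Fgfr1*, the main receptor of limb mesenchyme, was 82.6 to 114.0 TPM in WT and 107.2 to 144.9 TPM in *Gli3*-/-, with a difference of 0.28 ± 0.13 that was not called. At E9.25 none of the 4 was called, 2 had a positive value with an unadjusted p under 0.05, where 19.2% of all genes did, and *Fgfr1* differed by 0.28 ± 0.19 and *Fgfr2* by 0.93 ± 0.33. With the library labelled E9.25 WT replicate 2 left out, these were 0.17 and 0.53. The interaction was -1.87 ± 0.40 for *Fgfr2* and -2.31 ± 0.44 for *Fgfr3*, both called lower (limma, adjusted p = 0.0258 and 0.0131) as were 1.65% of genes. The *Fgfr2* interaction was not called without E9.25 WT replicate 3, E9.25 *Gli3*-/- replicate 2 or 3, E10.5 WT replicate 1 or 4, or E10.5 *Gli3*-/- replicate 2 or 3 (limma, adjusted p up to 0.0926), nor with no filter (0.0803) or a replicate block (0.0934). That of *Fgfr3* was not called with the block (limma, adjusted p = 0.0540).

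**Figure D3:**
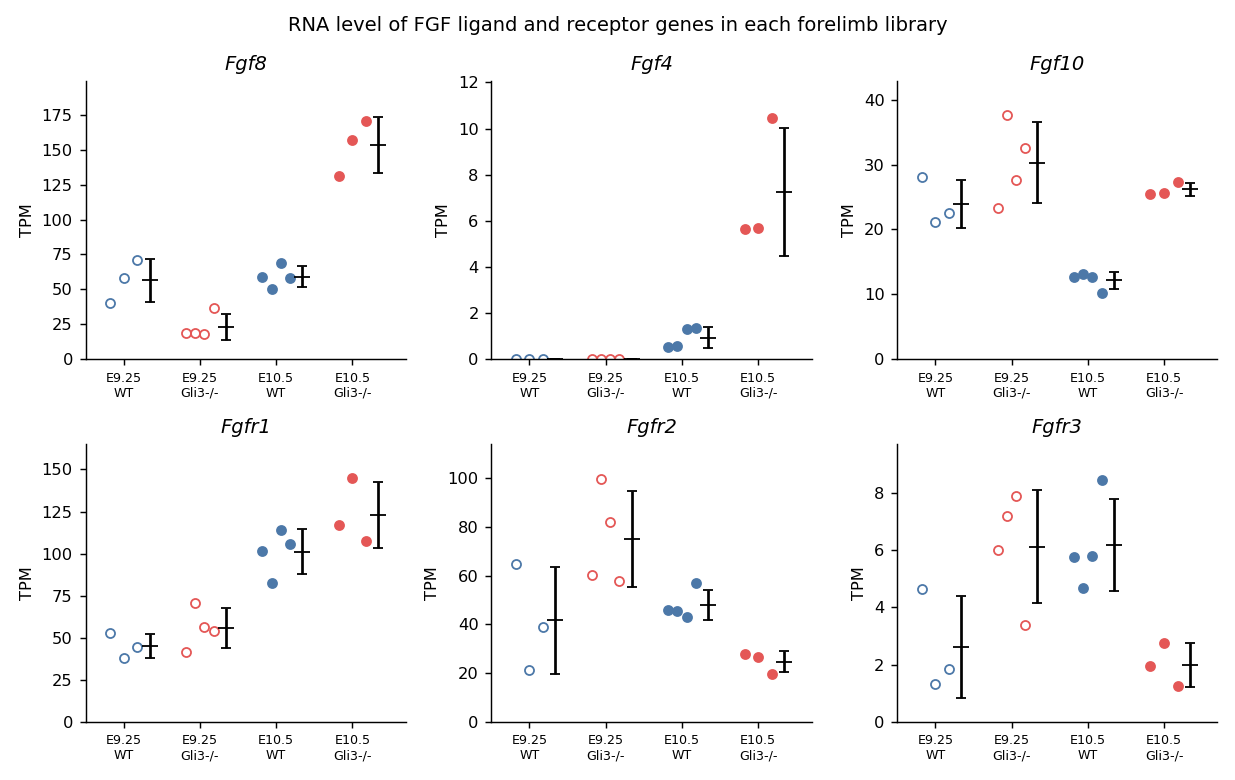
RNA level (y axis, TPM, starting at 0) of 3 FGF ligand genes (top) and 3 FGF receptor genes (bottom) in the 14 libraries, by group (x axis), with symbols as for the 9 response genes and black bars for the mean and SD. *Fgf8*, *Fgf4* and *Fgf10* are higher in each E10.5 *Gli3*-/- library than in each E10.5 WT library, and *Fgfr2* and *Fgfr3* are lower.

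The other lists of the pathway had from 1 to 3 calls each at E10.5, where 1.84% of all genes were called higher and 2.93% lower. Of 23 adaptors and kinases between receptor and ERK, 1 was called, *Rps6ka2*, a kinase that ERK activates, which rose by 0.41 ± 0.10, and the median of the list was 0.06. Of the fits that left out 1 library, only that without WT replicate 3 called *Rps6ka2* (limma, adjusted p 0.0490 to 0.175). Of 16 testable ERK target transcription factors and immediate early genes, 3 were called higher. These were *Ets2* (0.87 ± 0.10), *Ier2* (0.58 ± 0.10) and *Junb* (0.56 ± 0.13, named after its value was seen), with a list median of 0.16. *Ier2* was not called without WT replicate 4. Of 21 other phosphatases and feedback genes, *Phlda1*, an inhibitor of growth factor signalling to AKT, rose by 0.91 ± 0.11 and *Flrt2*, a membrane partner of FGF receptors, fell by 0.51 ± 0.10, with a list median of 0.12. *Flrt2* was called without WT replicate 1 or 2 but not without any of the other 5 libraries (limma, adjusted p 0.0348 to 0.0851). Over 12 other settings, *Rps6ka2* was called in 8, *Flrt2* in 9, *Ier2* in 10 and *Phlda1* in 11. Of 16 testable heparan sulfate and co-receptor genes, the syndecan *Sdc2* fell by 0.93 ± 0.12, and the list median was -0.08. At E9.25, limma called 0 genes of these 4 lists. At an unadjusted p under 0.05 there were 11 of 23, 4 of 19, 5 of 21 and 3 of 16, all 23 of them higher, where 19.2% of all genes were. Among these, *Frs2*, *Sos1*, *Cic* and *Nf1* were lowest in the library labelled E9.25 WT replicate 2, and *Grb2*, *Mapk3* and *Rps6ka1* in WT replicate 3. *Nf1* was 2.95 TPM in the former and 11.8 to 23.6 TPM in the other E9.25 libraries. The counts are not given with the library labelled E9.25 WT replicate 2 left out.

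At E10.5, summed levels of several marker lists also differed between the genotypes. The 8 posterior limb genes summed to 100.2 to 148.1 TPM in WT and 357.7 to 563.0 TPM in *Gli3*-/-. All 8 had a mean of at least 1 TPM in the mutants and 7 in WT, where *Shh*, the ligand of the posterior limb, was listed at 0. The 6 anterior limb genes summed to 131.1 to 204.4 TPM in WT and 20.4 to 39.2 TPM in *Gli3*-/-. The 10 mesenchyme genes summed to 1102 to 1319 TPM in WT and 859.2 to 941.6 TPM in *Gli3*-/-. The 10 surface ectoderm and ridge genes summed to 250.3 to 310.8 TPM in WT and 325.4 to 361.0 TPM in *Gli3*-/-, but without *Fgf8*, which is on that list, to 181.3 to 253.0 and 168.2 to 204.1 TPM. The 5 genes of migrating muscle progenitors summed to 43.5 to 52.0 TPM in WT and 27.8 to 38.8 TPM in *Gli3*-/-. *Gli3*-/- replicate 3 had a blood gene sum of 38343 TPM, against 11459 to 15887 TPM in WT. At E9.25 the 10 flank and lateral plate genes summed to 30.5 to 78.3 TPM in WT and 99.2 to 254.1 TPM in *Gli3*-/-, and the ectoderm list without *Fgf8* to 154.7 to 257.9 and 266.8 to 457.6 TPM. There the 8 endothelial genes summed to 71.8 to 124.6 TPM in WT and 138.2 to 205.1 TPM in *Gli3*-/-, and the 7 neural tube and crest genes to 6.18 to 12.6 and 3.39 to 5.10 TPM. The posterior list at E9.25 summed to 61.55 to 110.5 TPM in WT and 107.9 to 167.1 TPM in *Gli3*-/-. The anterior list at E9.25 summed to 81.0 to 97.5 and 54.6 to 82.7 TPM, and the genotypes overlapped for both. The part of these marker differences in the FGF response results was not tested.

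Between the stages in WT, 2 of the 9 genes were called higher at E10.5 and none lower, where 38.1% of genes were called higher and 10.6% lower. *Il17rd* was 2.42 times as high at E10.5, a rise of 1.28 ± 0.20 (limma, adjusted p = 0.00161), and 0.94 relative to the median gene. *Etv5* rose by 0.36 ± 0.12 (limma, adjusted p = 0.0373), which was 0.02 relative to the median gene. It was called in 4 of 11 other settings (limma, adjusted p 0.0163 to 0.866) and in 3 of the 7 fits with 1 library left out. *Dusp6* differed by 0.17 ± 0.15, *Spry2* by 0.21 ± 0.09, *Spry4* by 0.37 ± 0.17, *Etv4* by 0.26 ± 0.11, *Spred1* by 0.08 ± 0.18 and *Spred2* by 0.31 ± 0.19. None of these passed, and each turned negative under at least 1 other scaling. With the library labelled E9.25 WT replicate 2 left out, *Spry4* differed by 0.17, *Spred1* by -0.14 and *Spred2* by 0.07. *Spry1* differed by -0.15 ± 0.10 and was called lower with quantile normalization (-0.43, limma, adjusted p = 0.00956), median-of-ratios factors, FPKM and the gene span trend removed, out of 11 settings (limma, adjusted p 0.00745 to 0.476). Quantile normalization changed the count of all genes from 5885 higher and 1635 lower to 2668 and 3050.

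The WT count rested on single libraries. It was 4 without E9.25 replicate 1, and 1, *Il17rd*, with the library labelled E9.25 WT replicate 2 left out or without E10.5 replicate 1, 3 or 4. *Il17rd* itself was called in all 7 of these fits, with a difference of 1.01 with the library labelled E9.25 WT replicate 2 left out.

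In *Gli3*-/- buds, 6 of the 9 genes rose from E9.25 to E10.5 and none fell, where 15.8% of genes were called higher and 9.17% lower. *Il17rd* rose by 1.96 ± 0.21 (limma, adjusted p = 0.000117), to 3.93 times its E9.25 mean. *Dusp6* rose by 1.54 ± 0.18 (limma, adjusted p = 0.000206), to 2.84 times, and *Spry4* by 1.14 ± 0.22, to 2.19 times. *Etv4*, *Spry2* and *Etv5* rose by 0.92 ± 0.17, 0.91 ± 0.19 and 0.81 ± 0.16. *Spry1* (0.34 ± 0.20), *Spred2* (0.26 ± 0.16) and *Spred1* (0.03 ± 0.13) were not called. With 1 library left out, *Spry1* lay between 0.14 and 0.47 and *Spred2* between 0.12 and 0.35. The count of 6 was the same without each library in turn and under each other setting tried. Over all genes, 2437 were called higher and 1416 lower, which became 2342 and 2186 with quantile normalization.

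**Figure D4:**
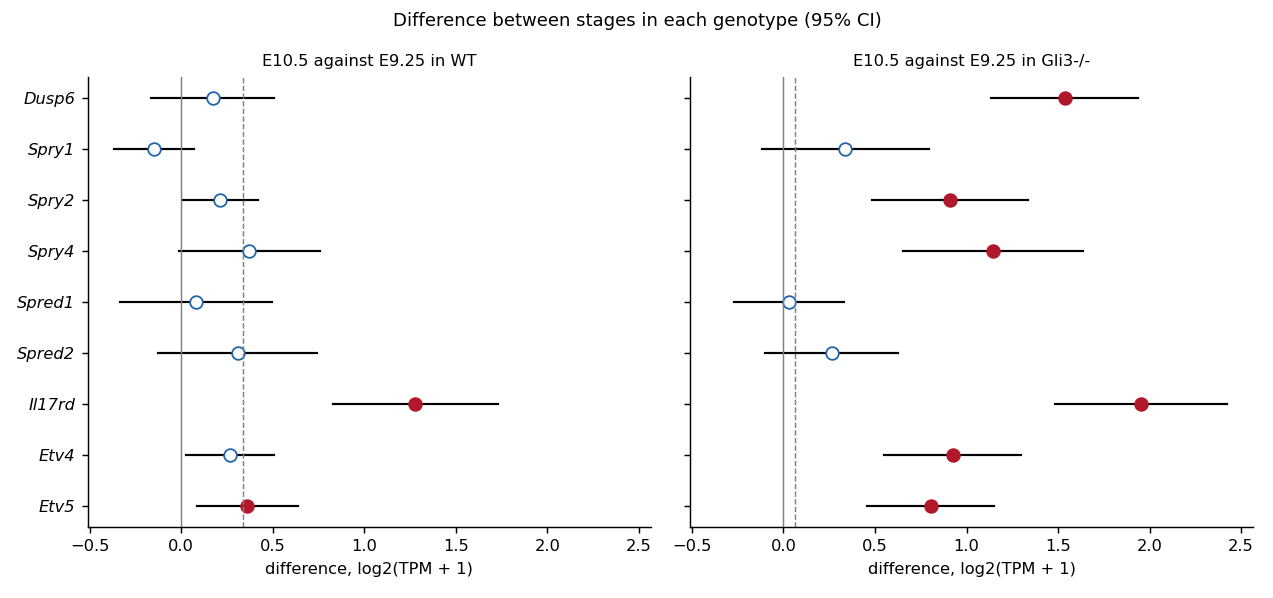
Difference of E10.5 from E9.25 on the log2(TPM + 1) scale (x axis) for each of the 9 genes (y axis) in WT (left) and in *Gli3*-/- (right), with 95% confidence intervals, filled points where the adjusted p was under 0.05 and the median of all genes tested as a dashed line. *Il17rd* lies far to the right in both panels, at 1.28 and 1.96, and *Dusp6* moves from 0.17 in WT to 1.54 in *Gli3*-/-.

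The ligand and receptor genes also changed with stage. In WT, *Fgf10* fell by 0.92 ± 0.14, and of the receptors *Fgfr1* rose by 1.15 ± 0.14 and *Fgfr3* by 1.08 ± 0.31, the last not called without E9.25 WT replicate 3 or E10.5 WT replicate 4. In *Gli3*-/-, *Fgf8* rose by 2.76 ± 0.23, *Fgfr1* rose by 1.15 ± 0.17, and *Fgfr2* and *Fgfr3* fell by 1.55 ± 0.20 and 1.24 ± 0.26. *Fgf8* was 56.4 ± 15.4 TPM (SD, n = 3) in E9.25 WT and 59.1 ± 7.66 TPM (SD, n = 4) in E10.5 WT. *Fgf18*, *Fgf2* and, in *Gli3*-/-, *Fgf4* and *Fgf17* were testable only through the E10.5 libraries in which they are high, so their calls are not used. *Fgf18* was 0.15 to 0.56 TPM in E9.25 WT and 2.24 to 4.63 TPM in E10.5 WT, and *Fgf2* was 0.14 to 0.46 and 1.14 to 1.31 TPM. *Fgf4* in *Gli3*-/- was listed at 0 at E9.25.

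The feedback genes outside the 9 included large changes in both directions. *Lrig1* and *Lrig3*, which encode membrane proteins that restrain growth factor receptors, rose by 2.15 ± 0.16 and 2.09 ± 0.21 in WT and by 2.33 ± 0.18 and 1.39 ± 0.15 in *Gli3*-/-. *Dusp5* and *Dusp2*, which encode nuclear ERK phosphatases, fell by 1.95 ± 0.14 and 0.72 ± 0.15 in WT and by 2.21 ± 0.17 and 1.15 ± 0.26 in *Gli3*-/-. Of 21 feedback genes tested, 10 were called higher and 2 lower in WT, and 6 and 5 in *Gli3*-/-. The shares of all genes called higher and lower were 38.1% and 10.6% in WT and 15.8% and 9.17% in *Gli3*-/-, so the WT counts lay near the background.

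Among ERK targets, 7 of 19 were called higher and 5 lower in WT, and 4 of 18 higher and 4 lower in *Gli3*-/-. The lower counts include *Etv2* and *Egr1* in both genotypes. These were testable only through the E9.25 libraries in which they are high, so their calls add no support. The counts in this paragraph stand against 38.1% of all genes called higher and 10.6% lower in WT, and 15.8% and 9.17% in *Gli3*-/-. *Cic*, the gene of Capicua, rose by 1.41 ± 0.29 and *Elk3* by 0.98 ± 0.15 in WT, and *Myc* fell by 1.66 ± 0.17. With the library labelled E9.25 WT replicate 2 left out, the rise of *Cic* was 1.00. *Etv2*, a factor of early blood vessel and blood precursors, was 11.2 to 19.5 TPM in E9.25 WT and 0 to 0.46 TPM in E10.5 WT, and was testable only through the E9.25 libraries. In *Gli3*-/-, *Elk3* (1.38 ± 0.17) and *Ier3* (0.71 ± 0.22) rose. *Ier3* was called without E9.25 replicate 2 or 3 but not without any of the other 5 libraries (limma, adjusted p 0.0204 to 0.146). Over 10 other settings it was called in 6. *Egr1*, an immediate early gene, was 5.09 to 7.93 TPM at E9.25 and 0.63 to 0.82 TPM at E10.5, and *Etv2* was 6.49 to 12.7 and 0.88 to 1.99 TPM. Both were testable only through the E9.25 libraries. Of 23 adaptors and kinases, 10 were called higher and 1 lower in WT, among them *Sos1* (0.93 ± 0.29), *Gab1* (0.90 ± 0.16) and *Map2k1*, which fell by 0.26 ± 0.10. *Map2k1* was called without E9.25 replicate 3 but not without any other library (limma, adjusted p up to 0.122). *Sos1* was not called without E10.5 replicate 1, 3 or 4, and its difference was 0.54 with the library labelled E9.25 WT replicate 2 left out. In *Gli3*-/- only *Shc1* (0.51 ± 0.13) was called higher and *Rps6ka3*, which fell by 0.58 ± 0.12, lower. Both *Shc1* and *Sulf2*, a sulfatase of heparan sulfate, were not called without E10.5 replicate 2. Of 16 heparan sulfate and co-receptor genes, 12 were called higher and 1 lower in WT, and 6 and 2 in *Gli3*-/-. *Sdc2* (1.69 ± 0.15) and *Sdc4* (1.01 ± 0.18) rose most in WT, *Sdc3* (1.43 ± 0.20) and *Sulf2* (0.71 ± 0.17) in *Gli3*-/-. *Hs6st2* fell by 0.92 ± 0.18 in WT and by 0.91 ± 0.14 in *Gli3*-/-, where *Sulf1* fell by 0.71 ± 0.15.

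The order of the 9 genes by TPM was led by *Dusp6* in every group. In E9.25 WT, *Spred1*, *Etv4*, *Etv5*, *Spry1*, *Spry2*, *Spred2*, *Il17rd* and *Spry4* followed. Among these only *Etv4* and *Etv5* were neighbours with separate ranges. In E10.5 WT, *Il17rd* ranked behind *Dusp6* and *Etv4*, with 47.6 ± 2.97 TPM (SD, n = 4) against 19.7 ± 6.15 TPM (SD, n = 3), and it overlapped *Etv4* above and *Etv5* below. *Spred1* was separate from *Spry2* below it, *Spry2* from *Spry1*, and *Spred2* from *Spry4*, while the other neighbours overlapped. In E10.5 *Gli3*-/- the order began with *Dusp6*, *Etv4* and *Il17rd*, and the lowest 3 were *Spry1*, *Spry4* and *Spred2*, at 37.9, 37.8 and 37.3 TPM, which overlapped.

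The 9 genes also varied together between libraries of a group. Over deviations from the 4 group means, Pearson's r on the log2(TPM + 1) scale was positive for all 36 pairs over the 14 libraries, with a median of 0.70. It was highest for *Spry1* and *Spry2* (0.95) and lowest for *Dusp6* and *Spred1* (0.04). The libraries share depth and dissection, so these values are a description. Neither they nor the counts that follow were computed for other genes, so whether they are particular to the 9 was not tested. All 9 genes lay below their group mean in E9.25 *Gli3*-/- replicate 1 and above it in replicate 2. In E10.5 WT replicate 3 all 9 lay above the mean, and in E10.5 *Gli3*-/- replicate 1 all 9 lay below it. E9.25 *Gli3*-/- replicate 1 also had the lowest mesenchyme sum of its group, 759.0 TPM, and replicate 2 the highest, 1136 TPM.

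Against *Fgf8*, the genes differed in how they varied over the libraries. Over all 14 libraries, *Dusp6* had an r of 0.97 with *Fgf8* and *Etv4* of 0.91, while *Spry1* had 0.49, *Spred2* 0.20 and *Spred1* -0.03. Within the 7 E10.5 libraries, which hold both genotypes, all 9 genes had an r between 0.86 and 0.97. *Fgf8* and each of the 9 genes were separated by genotype there, so high values follow from that difference and add no support. The r over all 14 libraries likewise includes the differences between the groups. An r with *Fgf8* over deviations from the group means was not computed. Within the 7 E9.25 libraries only *Dusp6* (0.90) and *Etv4* (0.82) were above 0.5, and *Spred1* and *Spred2* were at -0.54 and -0.57.

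**Figure D5:**
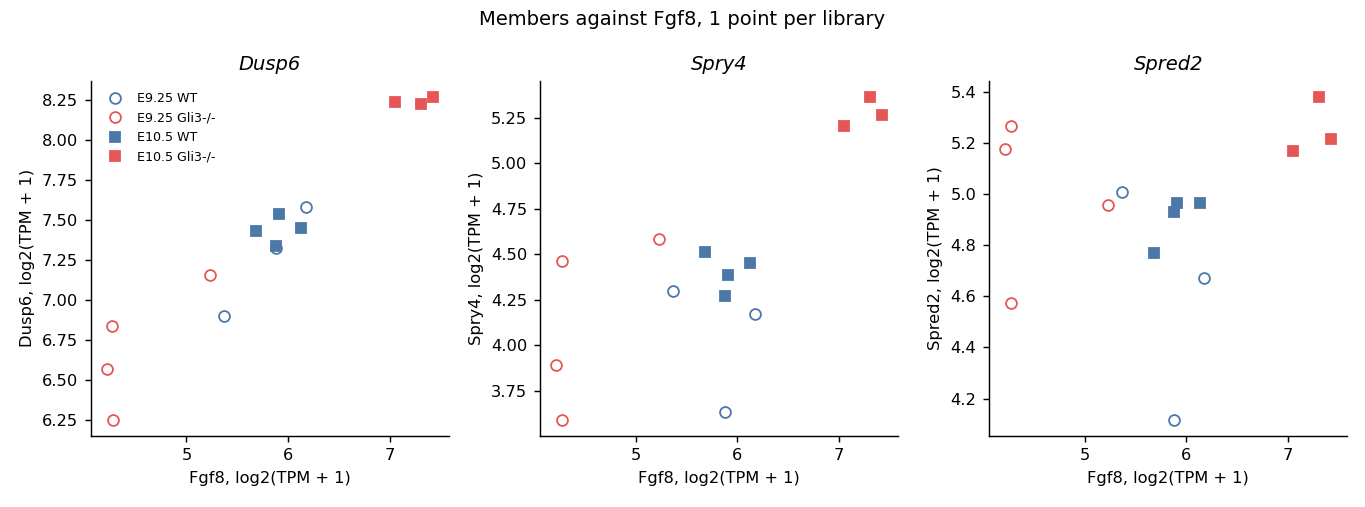
Level of *Dusp6*, *Spry4* and *Spred2* (y axes) against that of *Fgf8* (x axis), both as log2(TPM + 1), with 1 point per library (open at E9.25, filled at E10.5, blue for WT and red for *Gli3*-/-). *Dusp6* follows *Fgf8* over the 14 libraries (r = 0.97), whereas the E9.25 libraries scatter for *Spry4* (r = 0.07 over the 7) and slope the other way for *Spred2* (r = -0.57). These r values include the differences between the groups.

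For each of the 9 genes, the 3 other genes with the highest r over the 14 libraries were listed among all genes tested. Picked as the highest, and including the differences between the groups, these r values are a description only. Within a stage, r lay between 0.73 (*Etv4* and *Bmp7*, E10.5) and 0.99 (*Spred1* and *Zfand5*, E10.5). *Foxd2*, *Gm12241* and *Cntn2* were low, with group means from 0.12 to 3.68 TPM. Those for *Dusp6* included *Ccdc3* (0.98) and *Fgf8* (0.97). For *Etv4* they were *Bmp7*, *Ccdc3* and *Gm12241* (0.93 each), and for *Etv5* *Acot11*, *Cntn2* and *Wnt5a* (0.95 each). *Wnt5a*, a ligand of limb outgrowth, was also among those for *Spry4* (0.90), behind *Nid1* (0.95) and *Tril* (0.90). *Tril* recurred for *Spry2* (0.93), with *Fermt2* (0.93) and *Foxd2* (0.90). *Spry1* had the lowest values, 0.85 for *Crmp1*, 0.84 for *Tbcc* and 0.82 for *Prps1*. *Il17rd* was nearest to *Cyp26b1*, the gene of a retinoic acid degrading enzyme, *Sertad4* and *Cntn2* (0.98 each). *Spred1* was nearest to *Arl5a* (0.97), *Zfand5* (0.97) and *Pde3b* (0.96), and *Spred2* to *Zfp608* (0.98), *Diap1* (0.98) and *Heg1* (0.96), so that none of the genes nearest to the SPRED genes was shared with the others.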

How the data were processed

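RNA of pooled forelimb buds was sequenced by the authors (TRIzol, NEBNext Ultra II, single reads of 100 bases, NovaSeq) and aligned with HISAT2. The deposited tables give, per gene ID, the coverage (mean depth), FPKM and TPM values that the authors computed. The tool and annotation are not given in the sources used here, and the submitters' processing notes name mm10. The count test of the study's methods was not used, because no counts were at hand. Reads per library were estimated from the ratio of the deposited coverage to the deposited FPKM.

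The TPM of gene IDs on several lines was summed, and log2(TPM + 1) was tested with limma 3.58.1 (lmFit, eBayes with a trend) in R 4.3.3, two-sided, for genes that reached 1 TPM in 3 or more libraries of a fit, with Benjamini-Hochberg adjustment at 0.05. Genotypes were compared within a stage, stages within a genotype, and the interaction over all 14 libraries. The procedure was tested on simulated data. Replicates are separate pools, and p-values measure the spread between them. Same-numbered WT and *Gli3*-/- libraries did not all deviate together by either numbering, so the numbers were not used as pairs.

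The 9 genes and the pathway and marker lists were chosen with earlier results of these data known. Named besides the 9 were, per list and comparison, up to 2 called genes per direction with the largest difference, *Fgf4*, *Fgf8*, *Fgf10*, *Fgfr1* and *Fgfr2*, and the 3 nearest genes by correlation, of which 1 is not reported here. Of the pathway lists, *Spry3* had no row in the tables. Each result was recomputed with each library left out, with quantile normalization, FPKM or median-of-ratios size factors, with sample quality weights, with no trend in eBayes, with a filter at 5 TPM or none, with 0.1 added in place of 1, with a replicate block, in a single model of all libraries and after removal of a trend over gene span. Promoter stretches came from RefSeq (GRCm38.p6). Python 3.11.15 was used for other steps, with SciPy 1.17.1, NumPy 2.4.6 and pandas 2.3.3, and figures were drawn in matplotlib 3.10.9. The other assays of the study were not analysed here.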

Additional observations from a re-analysis of the deposited data

Results flagged for a closer look

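The effect of *Gli3* loss differed between E9.25 and E10.5, by the interaction of stage and genotype, for *Dusp6* (1.36), *Fgf8* (2.67), *Fgfr2* (-1.87), *Fgfr3* (-2.31) and *Sdc2* (-1.03), all as differences of log2(TPM + 1) with an adjusted p under the threshold (limma). Of these, *Sdc2* was not called with quantile normalization, median-of-ratios factors, a replicate block or the span trend removed (limma, adjusted p 0.0513 to 0.132), *Fgfr2* not with no filter or the block, and *Fgfr3* not with the block. The test also called *Fgf4* (2.08), but it was listed at 0 in all E9.25 libraries and testable only through E10.5, so the value restates the E10.5 difference and nothing about the stages is read from it.

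In 4 of 44 groups of 4 libraries, over 22 genes, a single library stood far from the other 3, where chance gives about 1 in 20. The gap to the nearest library was 0.946 of the whole range for *Fgf8* in E9.25 *Gli3*-/- (replicate 4, high), 0.834 for *Fgf10* in E10.5 WT (replicate 4, low), 0.847 for *Phlda1* in E10.5 WT (low) and 0.888 for *Sdc2* in E10.5 WT (high). None of these was one of the 9 response genes.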

How the results depend on the processing

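Values here are differences of log2(TPM + 1) or counts of the 9 genes called. At E9.25 limma called 0 under each alternative, with unadjusted counts in the report. At E10.5 the count of 6 became 2 with a replicate block by the numbers of the titles and 2 with a single model of all libraries, and was 3 to 4 with 1 library left out. *Etv5*, *Spred1* and *Etv4*, not called in the main fit, were called in 5, 4 and 1 of 12 settings. For the WT stage difference, the count of 2 became 1 without an eBayes trend, 4 with sample quality weights and 1 with a replicate block, and was 1 to 4 with 1 library left out. The members and directions behind it also changed. *Spry1* was called lower with quantile normalization, median-of-ratios factors, FPKM and the span trend removed. With the span trend removed, *Il17rd* was called higher and *Spry1* and *Spred1* lower. In *Gli3*-/- the count was 6 throughout. For the interaction, the count of 1 became 5 with quantile normalization, 4 with median-of-ratios size factors, 3 with FPKM and 5 with the span trend removed, and was 1 to 2 with 1 library left out. The causes were not tested. Same-numbered libraries had a mean r of -0.18 at E9.25 and -0.05 (titles) or 0.19 (tables, 0.0522 to 0.316) at E10.5, and a replicate block by the tables' numbers called 7 at E10.5.

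Signs turned for genes that were not called, except *Etv5* in WT, and *Spred1* in WT was called lower with the span trend removed (limma, adjusted p = 0.0179, against 0.146 to 0.98 over the other settings). At E9.25, *Spry4* was -0.19 with quantile normalization, -0.13 with median-of-ratios factors, -0.0492 with FPKM, -0.0532 with a replicate block and -0.10 with the span trend removed, *Spry2* was 0.0158 with weights, and *Fgf10* and *Fgfr1* were -0.0524 and -0.0358 with the span trend removed. In WT between stages, quantile normalization gave -0.0442 for *Spry2*, -0.0306 for *Spry4*, -0.13 for *Spred1* and -0.0348 for *Spred2*. Median-of-ratios factors gave -0.17 for *Dusp6*, -0.12 for *Spry2*, -0.0752 for *Etv4*, -0.26 for *Spred1* and -0.024 for *Spred2*. FPKM gave -0.001 for *Dusp6* and -0.0862 for *Spred1*, and weights gave -0.005 for *Spred1*. With the span trend removed, *Dusp6* was -0.0678, *Spry2* -0.0364, *Etv4* -0.0429, *Etv5* -0.10, *Spred1* -0.39 and *Spred2* -0.22. In *Gli3*-/- between stages, *Spred1* was -0.0384 with median-of-ratios factors, -0.0083 with weights and -0.10 with the span trend removed. For the interaction, *Spred1* was 0.15 with quantile normalization, 0.22 with median-of-ratios factors, 0.0939 with FPKM, 0.0238 with weights, 0.0188 with a replicate block and 0.28 with the span trend removed, and *Spred2* was 0.25, 0.22, 0.10, 0.0062 with weights and 0.32 with the span trend removed.

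With 1 library left out, the ranges that crossed 0 were -0.25 to 0.0791 for *Spry1*, -0.21 to 0.0814 for *Spry2*, -0.10 to 0.28 for *Spry4* and -0.18 to 0.0656 for *Etv5* at E9.25. They were -0.0129 to 0.33 for *Dusp6* and -0.14 to 0.29 for *Spred1* in WT between stages, -0.0642 to 0.12 for *Spred1* in *Gli3*-/-, and -0.25 to 0.18 for *Spred1* and -0.25 to 0.20 for *Spred2* in the interaction.

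Over all genes, the 16 higher and 4 lower at E9.25 became 0 and 0 with no filter, 24 and 12 with FPKM, 39 and 14 with weights, 50 and 16 with a replicate block, 1039 and 146 in the single model, and 2 to 196 in all with 1 library left out. The 288 and 459 at E10.5 became 178 and 213 with no filter, 466 and 890 with weights, 67 and 97 with a replicate block, 140 and 266 in the single model, and 301 to 680 in all with 1 library left out.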
